A study of Drosophila melanogaster with 12 samples.

Results

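A group of 6 genes of the endoplasmic reticulum (ER) folding machinery were followed over a temperature cycle and the day after it in adult *Drosophila* heads. They were *Gp93*, *CaBP1*, *Hsc70-3*, *Cnx99A*, *Pdi* and *ERp60*, with 1 probe set each. The genes were chosen by name, but with earlier results of these data known. These are 6 of the 10845 genes that the array annotation pairs with single-symbol probe sets, and all 6 probe sets passed the filter on signal described below. Flies of the *y w* strain, which carries body- and eye-colour markers and has a working circadian clock, had been raised in constant darkness at 25 °C. They were then entrained in darkness to a thermocycle of 12 h at 18 °C (cryophase) and 12 h at 25 °C (thermophase), and frozen at hours 2, 6, 10, 14, 18 and 22 of 1 more such cycle, the CA (cold/ambient) day. For the next day, AA (ambient/ambient), flies were kept at 25 °C throughout and frozen at the same hours, so that hours 2 to 10 are its subjective cryophase and hours 14 to 22 its subjective thermophase. RNA of heads pooled from many flies was hybridised to 1 Affymetrix array per time point. The 12 arrays fell into 4 groups of 3, and arrays are named by day and hour, CA2 to AA22.

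Proteins bound for the cell surface, the lysosome or the outside of the cell are threaded into the ER as they are made, and there they are folded by resident chaperones. Hsp70- and Hsp90-type chaperones bind unfolded chains, lectin chaperones hold chains that carry sugar trees, and protein disulphide isomerases form and shuffle disulphide bonds. When unfolded chains build up, sensors in the ER membrane start the unfolded protein response, which raises the transcription of many of these chaperones. In the fly eye the visual pigment passes through this machinery in large amounts.

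Values are log2 expression values made by robust multi-array averaging (RMA), and a difference of 1 is a 2-fold change. Group means were compared in a single limma model of all 12 arrays with Benjamini-Hochberg adjustment over the 11137 of 13966 probe sets in which more than 6 of the 12 values exceeded 2.93. A group holds 3 different hours, and its spread therefore includes changes with the hour. Whether the flies of each hour came from a culture of their own is not stated, and the p-values measure only the spread between these samples, which may be technical. The median standard error of a difference between groups of 3 was 0.11. In whole heads, fewer cells of a type and less RNA per cell cannot be told apart.

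The arrays had median values from 4.35 to 4.39, but differed in markers of tissues outside the head and of RNA quality. Of the 29 trypsin, Jonah protease and lysozyme genes listed as gut markers, 25 were measured, and their summed linear level lay between 1384 and 3198 in the CA cryophase, 1598 and 5403 in the CA thermophase, 1457 and 1685 in the AA subjective cryophase and 2403 and 3083 in the AA subjective thermophase. Of 16 male reproductive markers 13 were measured, with summed levels of 122 to 354, 130 to 681, 121 to 257 and 237 to 426 in the same order. No marker of either list was at 0, but 8 of the 13 male markers did not pass the filter. The difference between the 3' and 5' probe sets of *eIF-4a*, a control of RNA integrity, ranged from 0.96 at AA2 to 3.23 at CA22. Of 9 head markers 5 were measured, and all passed the filter, with *Arr2* (11.26 to 11.81) and *trp* (8.56 to 9.19) of photoreceptors, the neuronal *elav* (4.13 to 5.82) and *nSyb* (5.44 to 6.96), and the glial *repo* (4.62 to 5.42). In the CA thermophase 2 of these 5 had a higher mean and 3 a lower one (median -0.029), with *nSyb* at 0.51 and *elav* at -0.35. In the AA late hours 4 of the 5 had a lower mean (median -0.25), with *nSyb* at -0.76 and *elav* at -0.65, and in the early hours the CA minus AA difference of *nSyb* was -1.01. Their part in the results below was not tested.

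During the thermocycle all 6 transcripts had a higher mean at 25 °C than at 18 °C, by 0.15 to 0.47 (1.11- to 1.39-fold). *CaBP1* and *Gp93* showed the largest of these differences, and *ERp60* the smallest. None passed the adjusted threshold in limma, which 1 of 11137 probe sets (0.00898%) did. At an unadjusted p under 0.05, 3 of the 6 were higher in the thermophase (*Gp93*, *CaBP1* and *Hsc70-3*), against 1.5% of all probe sets. The values of the thermophase lay wholly above those of the cryophase for 4 of the 6, *Cnx99A* being the fourth, against 4.33% of all probe sets. The median difference of the 6 was 0.22, beside 0.000333 over all probe sets tested. Since the 6 were chosen with earlier results of these data known, these shares are descriptions and no test of the set.

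**Figure D1:**
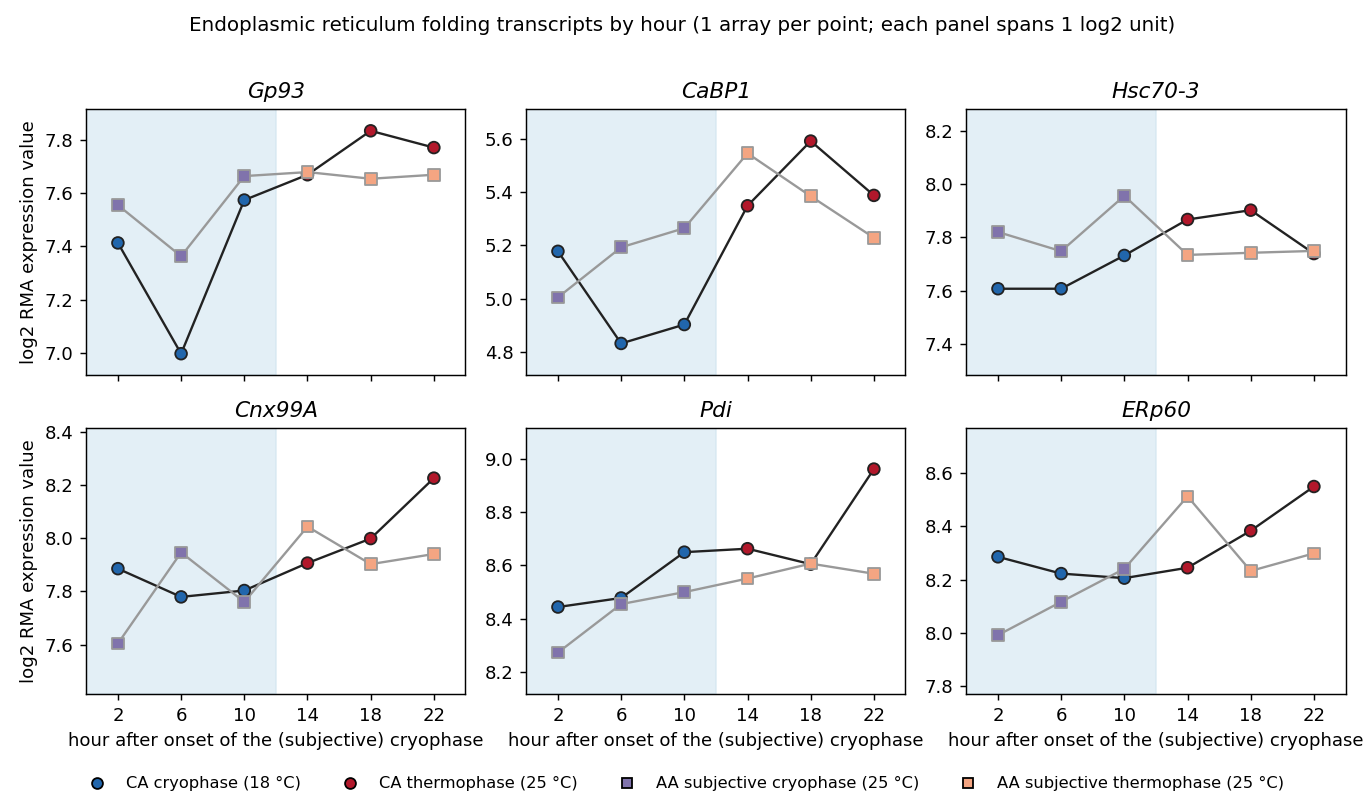
Log2 expression value of each of the 6 transcripts (vertical axis, 1 log2 unit per panel) against hour of the day (horizontal axis), with 1 point per array, circles and a dark line for the CA day and squares and a grey line for the AA day; the shaded hours were at 18 °C on the CA day only. *Gp93* and *CaBP1* were lowest at CA6 and highest at CA18, and *Cnx99A*, *Pdi* and *ERp60* were lowest at AA2 and highest at CA22.

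*Gp93* encodes the ER member of the Hsp90 family, known as GRP94 in mammals, where it is needed for the maturation of integrins and Toll-like receptors. Its values were 7.41, 6.997 and 7.57 at CA2, CA6 and CA10 and 7.67, 7.83 and 7.77 at CA14, CA18 and CA22. At AA2, AA6 and AA10 they were 7.56, 7.36 and 7.66, and at AA14, AA18 and AA22 they were 7.68, 7.65 and 7.67. Hour 6 was the lowest of both days, and every CA thermophase array stood above every CA cryophase array, the closest being CA10 and CA14. The CA phase difference was 0.43 (SE 0.13, 95% interval 0.15 to 0.71, unadjusted p = 0.00592, limma adjusted p = 0.995), or 1.35-fold, and 101 of the 11137 probe sets had a larger one. It rested in part on CA6, and without that array it was 0.26.

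*CaBP1* encodes a thioredoxin-domain protein of the disulphide isomerase family, whose mammalian counterpart is PDIA6 (P5). Its values were 5.18, 4.83 and 4.90 at CA2, CA6 and CA10 and 5.35, 5.59 and 5.39 at CA14, CA18 and CA22. On the AA day they were 5.01, 5.19 and 5.27 in the early hours and 5.55, 5.39 and 5.23 in the late hours. The CA groups did not overlap, while on the AA day AA22 lay below AA10. The CA phase difference of 0.47 (SE 0.12, 95% interval 0.22 to 0.73, unadjusted p = 0.00172, limma adjusted p = 0.995), or 1.39-fold, was the largest of the 6, with 78 probe sets above it. The study's own table of temperature-driven and temperature-entrained circadian transcripts, drawn partly from these arrays, names *CaBP1*. Which of these classes *CaBP1* belongs to was not read from the table, which gives no direction. Its change with phase here is not independent of that listing.

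*Hsc70-3* encodes BiP, the Hsp70 of the ER, which binds entering chains and holds the sensors of the unfolded protein response inactive. Its probe set gave 7.61, 7.61 and 7.73 at CA2, CA6 and CA10 and 7.87, 7.90 and 7.74 at CA14, CA18 and CA22. At constant 25 °C it gave 7.82, 7.75 and 7.96 in the early hours and 7.73, 7.74 and 7.75 in the late hours. The CA groups were separated only by the step from 7.732 at CA10 to 7.739 at CA22. The 3 arrays at 18 °C held the 3 lowest of the 12 values. The CA phase difference was 0.19 (SE 0.080, 95% interval 0.014 to 0.36, unadjusted p = 0.0365, limma adjusted p = 0.995), and it stayed at an unadjusted p under 0.05 when 8 of the 12 arrays were left out in turn. The suffix of this probe set marks probes that can also match related sequences, so the signal of other Hsp70 transcripts cannot be told apart from it.

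A second *Hsc70-3* probe set was close to the filter level, with values from 3.06 at AA18 to 3.90 at CA22. Its groups overlapped in every comparison of phases, and its CA phase difference was 0.084 (SE 0.17, limma adjusted p = 0.995). The interval of that difference, -0.29 to 0.46, includes the value of the brighter probe set, so the pair of probe sets was not shown to differ.

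*Cnx99A* encodes a calnexin, a membrane-bound lectin chaperone that holds newly glycosylated chains and that fly photoreceptors need to mature rhodopsin. Its values were 7.89, 7.78 and 7.80 at CA2, CA6 and CA10 and 7.91, 7.998 and 8.23 at CA14, CA18 and CA22. At constant 25 °C they were 7.60, 7.95 and 7.76 in the early hours and 8.04, 7.90 and 7.94 in the late hours. The CA groups were separate by the small step from CA2 to CA14, and the AA groups overlapped through AA6. The CA phase difference was 0.22 (SE 0.10, 95% interval -0.0056 to 0.45, unadjusted p = 0.055, limma adjusted p = 0.995). Without CA22 it was 0.13.

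*Pdi* encodes the main protein disulphide isomerase. Its values were 8.44, 8.48 and 8.65 at CA2, CA6 and CA10 and 8.66, 8.61 and 8.96 at CA14, CA18 and CA22. On the AA day they were 8.27, 8.46 and 8.50 in the early hours and 8.55, 8.61 and 8.57 in the late hours. CA22 stood well above the other 11 arrays, and CA10 lay above CA18. The CA phase difference was 0.22 (SE 0.10, 95% interval -0.0063 to 0.45, unadjusted p = 0.0557, limma adjusted p = 0.995), and without CA22 it was 0.11.

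*ERp60* encodes a disulphide isomerase whose mammalian counterpart, ERp57, works on glycoproteins held by calnexin and calreticulin. Its values were 8.29, 8.22 and 8.21 at CA2, CA6 and CA10 and 8.25, 8.38 and 8.55 at CA14, CA18 and CA22. At constant 25 °C they were 7.99, 8.12 and 8.24 in the early hours and 8.51, 8.23 and 8.30 in the late hours. The groups of both days overlapped, with CA14 below CA2 and AA18 below AA10. The CA phase difference was 0.15 (SE 0.10, 95% interval -0.069 to 0.38, unadjusted p = 0.157, limma adjusted p = 0.995), and without CA22 it was 0.076.

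The AA day asked what remained of these differences at a constant 25 °C. All of the 6 transcripts except *Hsc70-3* again had a higher mean in the late hours, by 0.14 to 0.23. The late-hour mean of *Hsc70-3* was below the early one (difference -0.10, SE 0.080, 95% interval -0.27 to 0.074). None of the 6 passed the adjusted threshold in limma, which 0.0% of all probe sets did. *ERp60* was the only one with an unadjusted p under 0.05 (0.23, SE 0.10, unadjusted p = 0.043, limma adjusted p = 0.883), against 1.86% of all probe sets higher at that level. *Pdi* was the only one whose late values all exceeded the early ones, against 4.83% of all probe sets, although its difference was 0.17 (SE 0.10, 95% interval -0.059 to 0.39). The differences of *CaBP1* (0.23), *Cnx99A* (0.19) and *Gp93* (0.14) had 95% intervals that included 0. Several of these values rested on 1 array. Without AA14 the difference was 0.15 for both *ERp60* and *CaBP1*, without AA6 it was 0.058 for *Gp93*, without AA10 it was -0.042 for *Hsc70-3*, and without AA2 it was 0.11 for *Cnx99A* and 0.098 for *Pdi*. *ERp60* was at an unadjusted p under 0.05 in 4 of the 12 leave-outs. The median of the 6 was 0.18, beside 0.0073 over all probe sets. With the gut marker score described below as a covariate this median was 0.14, and with the *eIF-4a* difference as one it was 0.12. The latter covariate left 0.17 for *ERp60*, 0.096 for *Cnx99A* and 0.091 for *Pdi*. Summed gut marker levels of the late hours (2403 to 3083) lay wholly above those of the early hours (1457 to 1685). The part of non-head tissue was not tested.

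**Figure D2:**
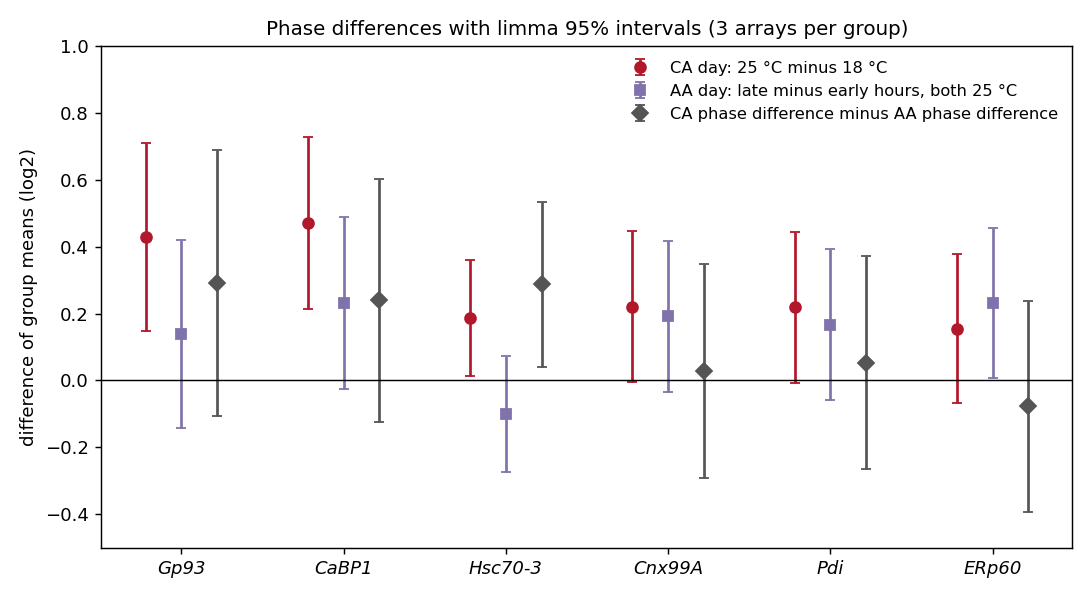
Difference of group means (log2, vertical axis) for each gene (horizontal axis), with limma 95% intervals: CA thermophase minus cryophase (circles), AA late minus early hours (squares) and the first minus the second (diamonds), 3 arrays per group. For *Hsc70-3* the CA difference of 0.19 and the AA difference of -0.10 lie on opposite sides of 0, while for *Cnx99A*, *Pdi* and *ERp60* those of the days differ by 0.029, 0.053 and -0.077.

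The phase differences of the days were set against each other directly. For *Hsc70-3* the CA difference exceeded the AA difference by 0.29 (SE 0.11, 95% interval 0.042 to 0.53, unadjusted p = 0.0255, limma adjusted p = 0.997). It was the only one of the 6 at an unadjusted p under 0.05, against 1.86% of all probe sets higher at that level and 0.0% past the adjusted threshold. The excess had a larger error for *Gp93* (0.29, SE 0.18, 95% interval -0.11 to 0.69; 0.12 without CA6) and *CaBP1* (0.24, SE 0.17, 95% interval -0.12 to 0.60). For *Cnx99A* it was 0.029 (95% interval -0.29 to 0.35), for *Pdi* 0.053 (-0.27 to 0.37) and for *ERp60* -0.077 (-0.39 to 0.24). These intervals are wide enough to hold the CA phase difference of each of those 3 genes, so the days were not shown to be alike for them.

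Comparing the days at the same hours set 18 °C against 25 °C without a change of hour. Temperature cannot be told apart from the day of collection in it, nor from the hour within the CA day. RNA quality cannot be told apart from temperature here either. The *eIF-4a* difference was 2.44 to 2.74 in the CA cryophase and 0.96 to 2.40 in the AA subjective cryophase, without overlap. In the early hours *Gp93*, *CaBP1* and *Hsc70-3* had lower means at 18 °C than at 25 °C, by 0.20, 0.18 and 0.19, whereas *Cnx99A*, *Pdi* and *ERp60* had higher ones, by 0.052, 0.11 and 0.12. *Hsc70-3* was below its AA value at each of the hours 2, 6 and 10 (by 0.21, 0.14 and 0.22), and its 3 values at 18 °C lay wholly below the 3 at 25 °C. The difference of -0.19 (SE 0.080, 95% interval -0.37 to -0.019) had an unadjusted p of 0.0323 and a limma adjusted p of 0.721. It was the only one of the 6 that was lower at an unadjusted p under 0.05, against 3.93% of all probe sets, and the only one with separate ranges, against 7.88%. The adjusted threshold was passed by 0.0% of all probe sets.

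*Gp93* was below its AA value at all 3 early hours, most at hour 6 (difference -0.37), and without CA6 its early-hour difference was -0.034. *CaBP1* was below it at hours 6 and 10 (-0.36 at each) but above it at hour 2 (0.17). Neither difference had an interval clear of 0 (*Gp93* -0.48 to 0.082, *CaBP1* -0.44 to 0.074). The differences of *Cnx99A* and *ERp60* were above 0 mainly through hour 2 (0.28 and 0.29), where the AA2 array held the lowest value of each. The median of the 6 was -0.066, beside -0.0033 over all probe sets, and without CA6 it was 0.020.

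**Figure D3:**
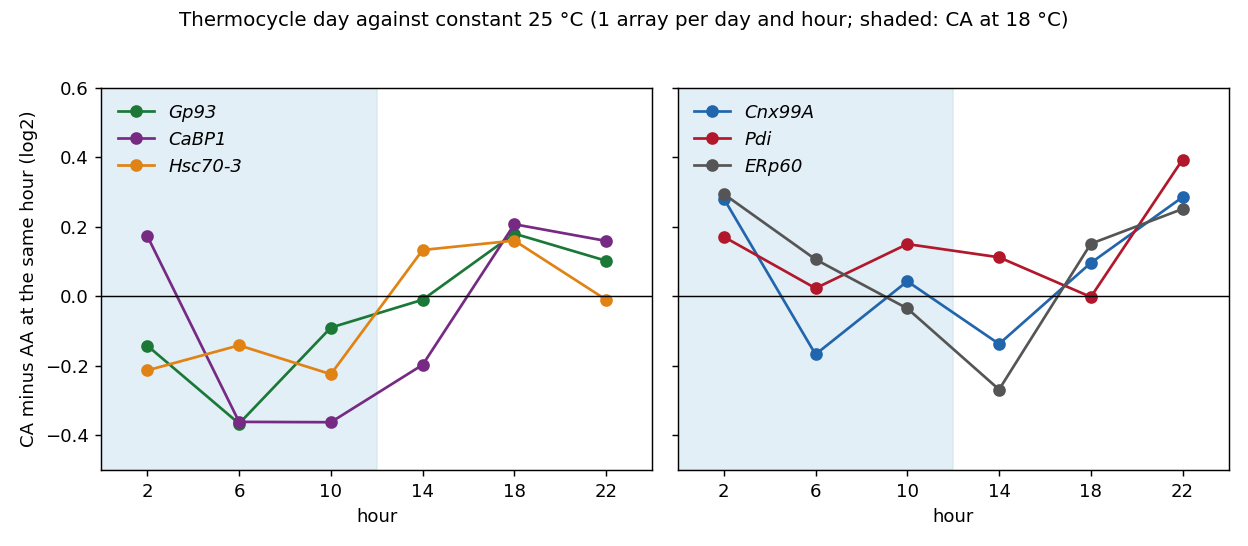
CA value minus AA value at the same hour (log2, vertical axis) against hour (horizontal axis), 1 array per day and hour, for *Gp93*, *CaBP1* and *Hsc70-3* (left) and *Cnx99A*, *Pdi* and *ERp60* (right); CA was at 18 °C in the shaded hours and both days were at 25 °C afterwards. *Hsc70-3* and *Gp93* lie below 0 at all 3 shaded hours, and *Pdi* lies above 0 at all 3.

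In the late hours both days were at 25 °C, after 12 h at different temperatures. All 6 transcripts had a slightly higher mean on the CA day, by 0.045 (*ERp60*) to 0.17 (*Pdi*, SE 0.10, 95% interval -0.058 to 0.39). None was higher at an unadjusted p under 0.05, against 1.62% of all probe sets, none had separate ranges, against 3.21%, and 0.0% of all probe sets passed the adjusted threshold. The difference of *Pdi* was 0.39 at hour 22 and 0.11 or less at hours 14 and 18. *CaBP1* and *Gp93* were highest at hour 18 on the CA day, and at that hour they exceeded their AA values by 0.21 and 0.18. The median of the 6 was 0.086, beside -0.011 over all probe sets.

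Periodicity was scored by F24, the share of a transcript's variance over time that a 24-h wave holds, against permuted time orders. Over both days *Gp93* had an F24 of 0.62 (permutation p = 0.0027, adjusted p = 0.401) and *CaBP1* one of 0.66 (permutation p = 0.0162, adjusted p = 0.571). These were the 2 of the 6 with an unadjusted p under 0.05, against 7.78% of all probe sets, and the adjusted threshold was passed by 0.0%. The other 4 had F24 between 0.26 (*Hsc70-3*) and 0.36 (*Pdi*), with permutation p from 0.161 to 0.298. A 24-h wave fitted to both days peaked at hour 17.6 for *Gp93* (SE 0.98) and 17.4 for *CaBP1* (SE 0.89), in the middle of the warm hours. The fitted peaks of *Pdi* (17.5, SE 1.7), *ERp60* (17.6, SE 1.7) and *Cnx99A* (18.7, SE 1.8) lay close by with larger errors, and that of *Hsc70-3* was at 14.7 (SE 2.4). These peaks pool both days, and those fitted to each day lay farther apart. For *Hsc70-3* the fitted peak was at hour 16.2 on the CA day and 8.3 on the AA day. In the same order it was at 21.12 and 15.02 for *ERp60*, 20.55 and 15.32 for *Cnx99A*, and 18.77 and 16.06 for *Pdi*. The limma test of the difference between the days' waves gave these 4 genes unadjusted p from 0.0675 to 0.753 (adjusted p = 0.9998 for each). The daily peaks of *CaBP1* and *Gp93* are given below.

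Within the CA day alone *Hsc70-3* followed a 24-h wave more closely than the other 5 (F24 = 0.993, exact permutation p = 0.0333), while its AA score was 0.306 (exact permutation p = 0.667). Its CA2 and CA6 values were equal (7.607), so its CA p was the smallest that this gene could reach. *CaBP1* scored 0.964 on the CA day and 0.891 on the AA day, each with the smallest p that the 60 distinct time orders of 6 arrays can give (exact permutation p = 0.0167). Its fitted peak moved from hour 18.9 on the CA day to 14.8 on the AA day (limma test of the difference between the days' waves, unadjusted p = 0.00706, adjusted p = 0.9998). *Gp93* scored 0.807 on the CA day (exact permutation p = 0.05) and 0.6 on the AA day (exact permutation p = 0.233), with fitted peaks at 17.8 and 16.9. *ERp60* scored 0.809 on the CA day, also with the smallest possible p (exact permutation p = 0.0167), and 0.702 on the AA day (exact permutation p = 0.15). *Cnx99A* scored 0.788 on the CA day (exact permutation p = 0.0667) and *Pdi* 0.315 (exact permutation p = 0.65). After adjustment over all probe sets no daily score of the 6 had an adjusted p below 0.916. The share of all probe sets that reach these p-values on a single day was not counted, so the daily p-values have no background beside them.

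Across the 12 arrays the 6 transcripts varied together only in part. Of the 15 pairs 13 had a positive Pearson r, with a median of 0.47 and a range of -0.10 to 0.86. The p-values of these pairs and of 18 relations to array measures were adjusted together, over 33. The permutations shuffled all 12 arrays freely, without regard to day or hour. A relation between transcripts therefore cannot be told apart from a change with phase that they share. The genes were chosen with earlier results of these data known, and other pairs of probe sets were not compared. *Gp93* and *CaBP1* had r = 0.747 (permutation p = 0.0034, adjusted p = 0.0468) and Spearman rho = 0.869 (permutation p = 0.0005, adjusted p = 0.0162). Their r was 0.694 without CA6 and AA6, the arrays farthest from the median of *Gp93*, 0.820 within the CA day and 0.488 within the AA day. *Cnx99A* and *ERp60*, which act on the same glycoproteins in mammals, had r = 0.860 (permutation p = 0.0006, adjusted p = 0.0201) and rho = 0.727 (permutation p = 0.01, adjusted p = 0.0663).

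The r of *Cnx99A* with *ERp60* was 0.616 without CA22 and AA2, 0.978 within the CA day and 0.776 within the AA day. The relation of *Cnx99A* with *Pdi* (r = 0.792, permutation p = 0.0051, adjusted p = 0.0468; rho = 0.490, permutation p = 0.110, adjusted p = 0.260) rested on those arrays, since r was 0.156 without them. It was 0.826 within the CA day and 0.780 within the AA day. *Hsc70-3* stood apart from that trio, with r of -0.10 with *Cnx99A* (permutation p = 0.755, adjusted p = 0.804), 0.042 with *Pdi* (p = 0.900, adjusted p = 0.900) and -0.071 with *ERp60* (p = 0.831, adjusted p = 0.857), and with rho from -0.021 to 0.098 (adjusted p of 0.845 or more). With the same 3 genes in that order, the r of *Hsc70-3* was 0.34, 0.39 and 0.23 within the CA day. Within the AA day it was -0.64, -0.30 and -0.26. On the CA day all 15 pairs had a positive r, and on the AA day 11 did.

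The gut marker score, the mean deviation of the measured gut markers from their means over the arrays, was highest at CA22 (0.95) and lowest at CA10 (-0.55). *Cnx99A* had r = 0.682 with it (permutation p = 0.012, adjusted p = 0.0686; rho = 0.573, permutation p = 0.055, adjusted p = 0.173), or 0.490 without CA14 and CA22. The same gene had r = 0.738 with the male marker score (permutation p = 0.006, adjusted p = 0.0468). That r was 0.493 without CA22 and AA10, 0.738 within the CA day and 0.782 within the AA day, and its rho was 0.608 (permutation p = 0.04, adjusted p = 0.166). *Pdi* and *ERp60* had r of 0.590 and 0.574 with the gut score (adjusted p = 0.124 each), which became 0.066 and 0.407 without CA14 and CA22. For *Gp93* (0.346), *CaBP1* (0.439) and *Hsc70-3* (-0.220) the adjusted p of r with the gut score was 0.243 or more. Of the 25 gut markers 24 had a higher mean in the CA thermophase, with a median of 0.56, and 24 in the AA subjective thermophase, with a median of 0.39. Of the 13 male markers 13 and 11 had, with medians of 0.22 and 0.24.

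Array CA18 held the highest *Gp93* and *CaBP1* values of the 12, and its gut score (-0.38) was below 0. With the gut score as a covariate the CA phase difference was 0.44 for *Gp93*, 0.47 for *CaBP1* and 0.24 for *Hsc70-3*, against 0.15 for *Cnx99A*, 0.18 for *Pdi* and 0.12 for *ERp60*. The part of non-head tissue was not tested beyond this for any of these genes, *Gp93*, *CaBP1* and *Hsc70-3* included. *Hsc70-3* had lower values where the *eIF-4a* difference was larger (r = -0.597, permutation p = 0.042, adjusted p = 0.124; rho = -0.567, permutation p = 0.058, adjusted p = 0.173). That r was -0.721 without AA2 and AA18, -0.676 within the CA day and -0.488 within the AA day. *Cnx99A* ran the other way with that difference (r = 0.577, permutation p = 0.046, adjusted p = 0.124; rho = 0.406, permutation p = 0.196, adjusted p = 0.323; r = 0.388 without AA2 and AA18). With the *eIF-4a* difference as a covariate, the early-hour difference of *Hsc70-3* was -0.14 and its excess of the CA over the AA phase difference was 0.23, and neither was at an unadjusted p under 0.05 any longer. Its CA phase difference became 0.17 and left that level too, while those of *Cnx99A* (0.28) and *Pdi* (0.27) came under it. Of all 11137 probe sets, 323 were higher in the CA comparison at that level with this covariate, against 167 without it. In the early hours 219 were lower with it, against 438 without.

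**Figure D4:**
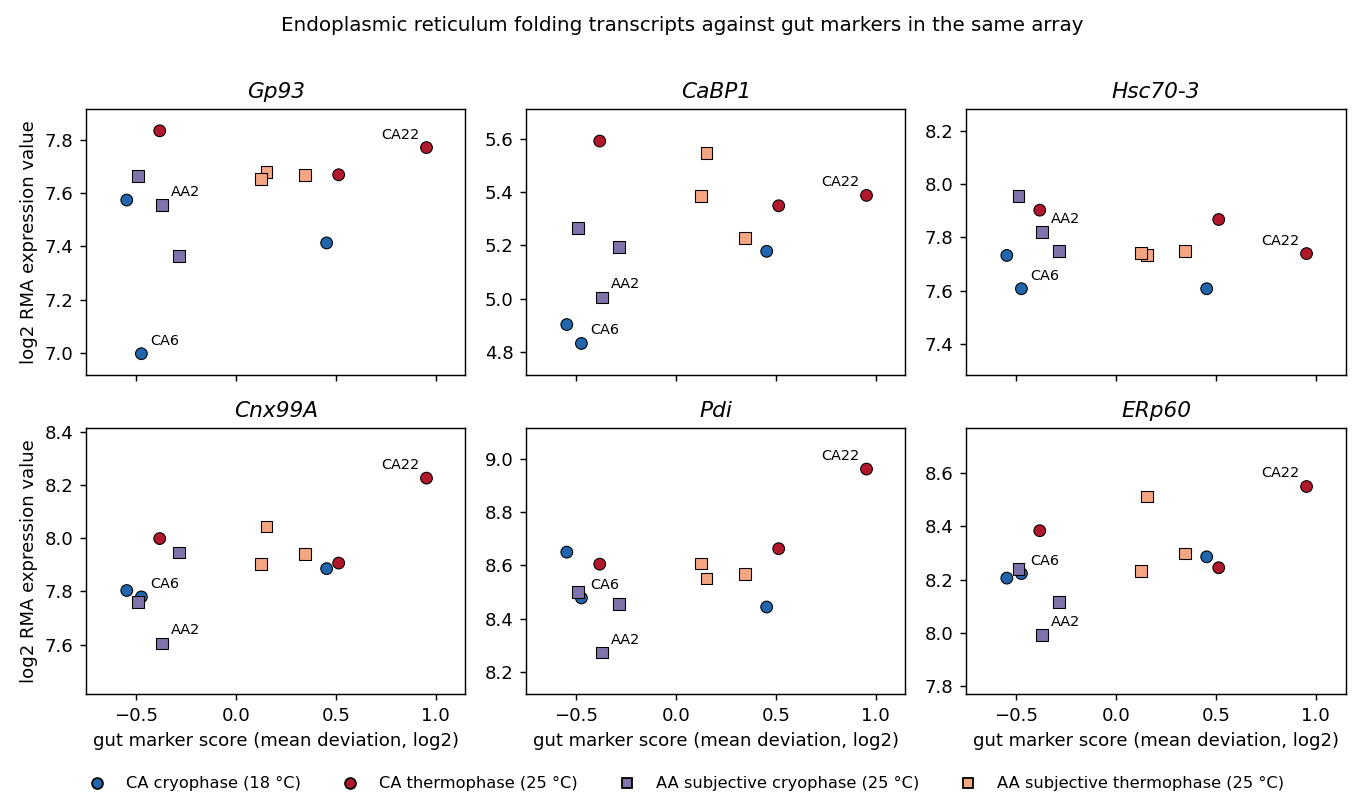
Log2 expression value of each transcript (vertical axis, 1 log2 unit per panel) against the gut marker score of the same array (horizontal axis, log2 deviation), 12 arrays coloured by group, with CA6, CA22 and AA2 named. *Cnx99A*, *Pdi* and *ERp60* are highest at CA22, where the score is 0.95, while *Gp93* and *CaBP1* are lowest at CA6, where it is -0.47, and highest at CA18, where it is -0.38.

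The wider ER machinery was described from 7 gene lists, 51 of whose genes had a probe set that passed the filter. In the CA comparison 33 of the 51 had a higher mean at 25 °C and 18 a lower one, with a median of 0.085. Of all 11137 probe sets 5587 had a higher mean, with a median of 0.00033. At an unadjusted p under 0.05, 7 were higher and 0 lower, and 0 passed the adjusted limma threshold. Without the 6 genes described above, 27 of 45 were higher, with a median of 0.047, and 4 were so at an unadjusted p under 0.05. Those 4 were *Sil1*, *sel*, *Stt3B* and *PPP1R15*. Over all 11137 probe sets 1.5% were higher and 264 were lower at that level, and no test was made of the lists.

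All 8 measured ER chaperones and their helpers had a higher mean in the CA thermophase, with a median of 0.20. *Gp93*, *Hsc70-3* and *Cnx99A*, described above, are among these 8. Of all 11137 probe sets 5587 had a higher mean. On the AA day 7 of the 8 had a higher mean in the late hours, with a median of 0.12. *Sil1*, which exchanges the nucleotide on BiP, was higher by 0.41 (SE 0.15, 95% interval 0.085 to 0.73), and the BiP co-chaperone *P58IPK* by 0.22 (SE 0.11). *Grp170*, a large Hsp70-like partner of BiP, was near 0 (0.037), as was the second calnexin gene *Cnx14D* (0.039). Calreticulin, the soluble partner of calnexin, was not analysed here. Of the 7 measured genes of disulphide formation 6 passed the filter, and these were split, with *CaBP1*, *Pdi* and *ERp60* higher and the other 3 lower by little: *wbl* (-0.11), the oxidase *Ero1L* (-0.062) and *prtp* (-0.0043).

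**Figure D5:**
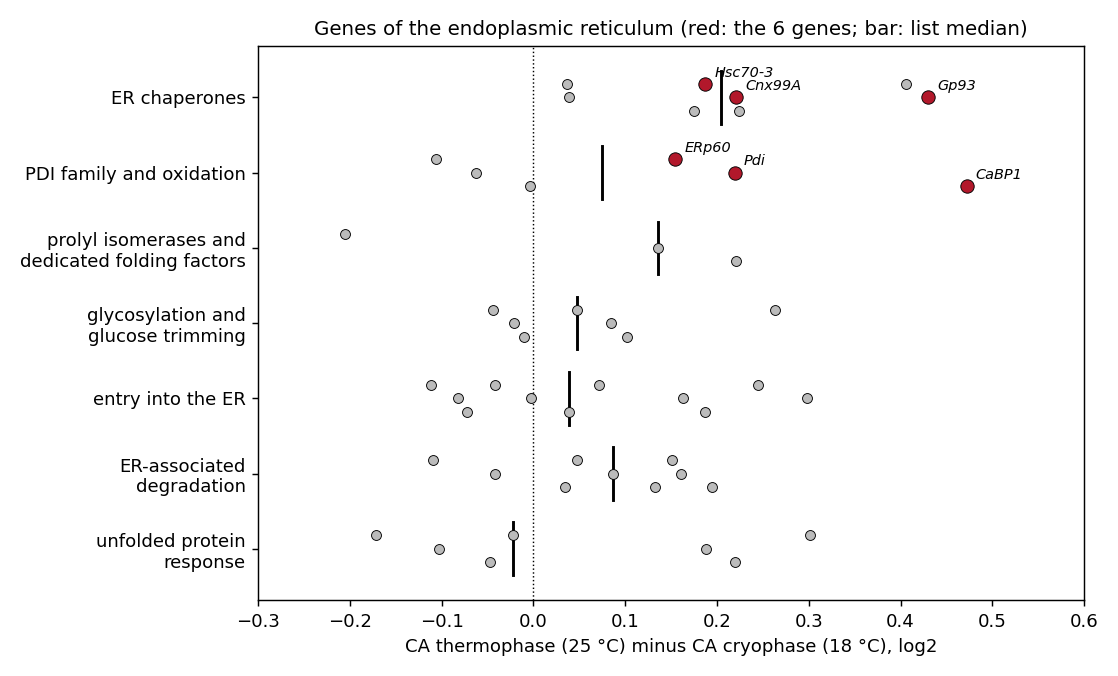
CA thermophase minus cryophase (log2, horizontal axis) for 51 genes in 7 ER lists (rows), 1 point per gene, the 6 genes in red and named, with a bar at each list's median. The 8 chaperones and helpers all lie above 0 (median 0.20), while the 7 genes of the unfolded protein response lie on both sides (median -0.022).

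Of 3 prolyl isomerases and dedicated folding factors, *sel* was higher by 0.22 (SE 0.098) and the cyclophilin *CG2852* by 0.14 (SE 0.10), while *Fkbp14* had a lower mean (-0.21, SE 0.18), and the list's median was 0.14. Of 7 genes of glycosylation and glucose trimming (median 0.048), *Stt3B*, a catalytic subunit of the oligosaccharyltransferase, was higher by 0.26 (SE 0.12) and the glucosidase subunit *GCS2beta* by 0.085 (SE 0.093). Of 11 genes of entry into the ER (median 0.039), the translocon partner *TRAM* was higher by 0.19 (SE 0.091) and *SrpRalpha*, a subunit of the signal recognition particle receptor, by 0.24 (SE 0.12).

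Of 9 genes of ER-associated degradation (median 0.087), *Npl4*, a cofactor of the segregase that pulls chains out of the ER, was higher by 0.20 (SE 0.095) and *Herp* by 0.16 (SE 0.10). Of 7 genes of the unfolded protein response (median -0.022), *PPP1R15*, which restores translation by dephosphorylating its initiation factor, was higher by 0.30 (SE 0.13). The kinase *PEK*, which phosphorylates that factor, was higher by 0.22 (SE 0.16), and the sensors *Ire1* (-0.022) and *Atf6* (-0.17) had lower means.

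On the AA day 39 of the 51 had a higher mean in the late hours, with a median of 0.073, beside 5847 of all 11137 probe sets and a median of 0.0073. Apart from *ERp60*, *Sec63* of the translocon was higher (0.19, SE 0.081) and the glucosidase *GCS1* lower (-0.36, SE 0.16) at an unadjusted p under 0.05, both named after their values were seen. In the excess of the CA over the AA difference, *Sec61beta* (0.65, SE 0.26) and *Hsc70-3* were higher and *Sec63* lower (-0.26, SE 0.11) at that level, the translocon genes again named after their values were seen. In each of these comparisons 2 of the 51 were higher at that level, against 1.86% of all probe sets, and none passed the adjusted threshold in limma (adjusted p of 0.883 or more).

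The probe sets most like the mean centred profile of the 6 genes over the 12 arrays, by Pearson r, were those of *mbf1* (0.912), a transcriptional coactivator, *CG8112* (0.875), the lipid droplet protein gene *Lsd-1* (0.861), *Stip1* (0.847), a co-chaperone of cytosolic Hsp70 and Hsp90, and *SrpRalpha* (0.833). These r are descriptions over arrays that share the same cycle. Of the 6 genes themselves, *CaBP1* was closest to the mean profile (0.885) and *Hsc70-3* farthest from it (0.412). Each gene is part of that profile, and genes of a wide range weigh more in it. The range over the arrays was 0.84 for *Gp93*, 0.76 for *CaBP1* and 0.35 for *Hsc70-3*, so this order is partly built in. *Hsc70-3* followed it on the CA day (0.726) and not on the AA day (-0.208).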

How the data were processed

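Heads of *y w* flies were profiled on Affymetrix Drosophila Genome 1 arrays, with 1 array at each hour. The authors deposited RMA expression values on a log2 scale; the version and the log base are not given in the sources used here, and the range and near-equal medians are those of log2 values. No further normalization was applied. A probe set was tested if more than 6 of its 12 values were above 2.93 (log2), the 20th percentile over the 13966 probe sets other than the 44 controls; 12443 of them carried 1 gene symbol, 327 several and 1196 none, from GEO's platform annotation, which can be old. Where a gene of a list had several probe sets, that of the highest mean was used.

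Group means were fitted in limma (two-sided tests, 8 residual and 4.24 prior degrees of freedom). F24, named in the study's methods without a formula, was computed as the 24-h Fourier share of the variance and set against 10000 permuted time orders for both days and all orders of a day. Peaks came from a harmonic regression in limma. Correlations used 100000 permutations.

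The 6 genes, the lists, the groups and the tests were chosen with earlier results of these data known. Named genes were all probe sets of the 6, of each other list the 2 with the smallest p in the CA comparison or any past an adjusted p of 0.05, and the 5 probe sets most like the mean profile; others are given as members of a list or marked as named after their values were seen. Alternatives covered the filter, normalization, variance model, array weights, arrays included, covariates, hour of day as a block and leaving out each array. Methods were tested on simulated data. Gene and protein sequences, genome positions and other time courses of the study were left out and not analysed here. The tools were Python 3.11.15 with scipy 1.17.1, numpy 2.4.6, pandas 2.3.3 and matplotlib 3.10.9, and limma 3.58.1 in R 4.3.3.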

Additional observations from a re-analysis of the deposited data

How the results depend on the processing

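The median difference of the 6 genes changed sign in the early hours without CA6 (from -0.066 to 0.020) and in the late hours with array weights (from 0.086 to -0.0052), and its difference of phase differences went from 0.15 to 0.077 without CA6. In the CA comparison 3 of the 6 were higher at an unadjusted p under 0.05, 5 were after the values were quantile normalized again, 4 with the *eIF-4a* covariate, 2 with an intensity trend in limma or with only the arrays compared, and 2 (without CA2 or CA6) to 5 (without AA2) were with an array left out. *Gp93* and *CaBP1* were among them in 12 of 12 leave-outs. Of all 11137 probe sets, 167 were higher at that level in the main fit and 192 after the renewed quantile normalization. There were 323 with the *eIF-4a* covariate, 162 with the intensity trend and 214 with only the arrays compared. Without CA2, CA6 or AA2 there were 271, 110 or 182. The only call of a member past an adjusted p of 0.05 was *CaBP1* with array weights (0.46, limma adjusted p = 0.0396), where CA14 had a weight of 6.12 and 82 probe sets were called in place of 1. The CA count was 0 with median centring, with only the arrays compared, with the gut score as a covariate and when any array other than AA2 was left out. It was 3 on the AA day with only the arrays compared. With hour of day as a block, 15 probe sets were called in the early hours and 1 in the difference of the phase differences. *Gp93* joined *Hsc70-3* at an unadjusted p under 0.05 in both (limma adjusted p = 0.272 and 0.481). In that setting 887 of 11137 probe sets were lower in the early hours at that level, against 438 in the main fit. In the difference of the phase differences 584 were higher, against 207 in the main fit. No paired analysis of phases was possible because each hour belongs to 1 phase. Directions that changed were those of the second *Hsc70-3* probe set in CA (-0.055 with the gut covariate; -0.067 to 0.25 with an array left out), in AA (-0.092; 0.061 without AA18) and in the early hours (0.055; -0.25 with the *eIF-4a* covariate, -0.048 without AA2), the difference of phase differences of *Cnx99A* (-0.050 with array weights; -0.062 to 0.11), *Pdi* (-0.056 to 0.12) and *ERp60* (0.025 with the *eIF-4a* covariate; -0.16 to 0.0053), the early-hour difference of *Cnx99A* (-0.090 with the *eIF-4a* covariate; -0.031 to 0.14), and with array weights the late-hour differences of *CaBP1* (-0.030; -0.023 to 0.14), *Cnx99A* (-0.046; -0.0097 to 0.15) and *ERp60* (-0.11; -0.034 to 0.13). The causes were not tested. Leaving out CA22 gave the lowest value for the second probe set in CA, for the differences of phase differences and for the late hours of *Cnx99A* and *ERp60*. The number of arrays limits the precision, and signal near the background limits the second *Hsc70-3* probe set. The planned search of sequences was not run.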
